A study of Mus musculus with 2 samples.

Results

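The highest M9C dose of a dose series, 20 pmol of that peptide, was compared with rest in mouse CD8+ T cells read 30 h after stimulation began. Cells were chosen by their hashtag, a barcoded antibody that marks the culture a cell came from. A cell was kept where the top hashtag had at least 20 counts and 80% of all hashtag counts, where at least 500 genes were seen, and where mitochondrial genes made up at most 10% of its unique molecular identifiers (UMIs, each 1 captured RNA molecule). This gave 1869 cells at 20 pmol M9C and 755 rested cells, together 2624 of the 10600 cells kept in all 6 conditions. The series holds splenic CD8+ T cells of wild-type (WT) mice, rested or given 1 of 5 peptide-MHC stimuli. Per the deposited condition table, the stimuli were biotinylated monomeric H-2Db, a mouse MHC class I molecule, loaded with peptide and held on streptavidin-coated plates. The peptides were M9C (KAVYNFATM) at 20, 2 or 0.2 pmol and L6F (KAVYNLATC) at 80 or 20 pmol. Live cells were sorted by propidium iodide exclusion, 4000 from each stimulated culture and 2000 from the rested one, and all were loaded into 1 lane of a droplet platform. The T cell receptor of these cells is not given in the sources used here. Each condition was 1 culture, so there are no replicates, and every interval below is a 95% interval of counting error only.

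The tags that define the groups compared were these 15-base hashtag barcodes, shown because every cell's condition was read from them and from nothing else.
Hashtag 1, rested: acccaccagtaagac
Hashtag 2, 20 pmol M9C: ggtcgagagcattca

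A resting CD8+ T cell is small, makes little protein and recirculates between blood and lymphoid tissue under a programme that includes the transcription factor KLF2 and the receptor S1PR1. Recognition of peptide-MHC by the T cell receptor starts Erk, NFAT and NF-kB signalling, then growth in cell size, with new ribosomes, lipids and nucleotides, and then division. Because an activated cell holds more RNA than a resting one, a gene can take a smaller share of the RNA while the number of its molecules per cell goes up. Both scales are therefore given: CPM, a gene's counts scaled to the same fixed total in each condition, and UMIs per cell.

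Stimulated cells carried far more captured RNA. The median cell held 6943 UMIs (quartiles 4764 to 8642) and 2416 genes at 20 pmol M9C, against 1056 UMIs (948.5 to 1211.5) and 576 genes at rest, which is 6.57 times as many UMIs. The sums were 12916714 and 918920 UMIs, and at these sums a gene with no UMI could still be present at up to 0.232 CPM in stimulated and 3.26 CPM in rested cells, the level of 3 counts. More RNA per cell and better capture of it cannot be told apart. The minimum of 500 genes removed 828 of 1583 rested cells (52.3%) and 64 of 1941 stimulated cells (3.30%), which leaves the deeper part of the rested culture. Hashtag calls were also less clear at rest, with a median top-hashtag share of 89.8% against 97.7%. Markers of CD8 T cells summed to 3844 CPM at rest and 2159 CPM after stimulation, and 90.2% and 98.4% of cells had 2 or more of these UMIs. Summed markers of macrophages or monocytes (151.3 against 2.79 CPM) and erythroid cells (199.1 against 13.2 CPM) were higher at rest. So were those of NK cells (37.0 against 1.39 CPM) and basophils or mast cells (29.4 against 1.94 CPM). For erythroid markers, 0.662% of rested and 0.589% of stimulated cells had 2 or more UMIs, and for NK markers 0.397% and 0.161%. The shares were 0.397% and 0.0535% for macrophages or monocytes and 0.795% and 0.214% for basophils or mast cells. The 94 rested UMIs of the erythroid marker Hbb-bs lay in 4 cells, and the 31 of the NK marker Tyrobp in 6. At rest 1 cell held 54.5% of the 134 UMIs of Lyz2, the macrophage lysozyme. Gamma-delta T cell markers summed to 466.9 CPM at rest and 62.9 CPM after stimulation, mostly Trdc, which stood at 0.485 and 0.399 UMIs per cell. B cell markers summed to 265.5 and 222.1 CPM, with 3 of 7 at 0 at rest and 2 after stimulation, and 4.24% of rested and 41.3% of stimulated cells had 2 or more of these UMIs. Most of them were Ighm, the constant region of IgM, at 240.5 and 214.5 CPM, or 0.293 and 1.48 UMIs per cell. A cutoff of 2 UMIs is passed more often in cells with more UMIs, so these shares of cells also follow depth. The part of cells with markers of other types in the results was not tested beyond leaving them out, which is reported with the limits.

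On the scale of UMIs per cell almost the whole transcriptome was higher. Genes with 10 CPM or more in either condition, 7779 in number, were taken as measured, and a gene was counted as higher or lower where its ratio was at least 2-fold and its interval excluded equality. Per cell, 7059 measured genes (90.7%) were higher and 127 (1.63%) lower, and the median gene stood 6.09-fold higher. In CPM, 1316 genes (16.9%) had the higher value after stimulation and 1244 (16.0%) the lower one; the median log2 ratio was 0.10. When ribosomal protein genes, mitochondrial genes, Malat1 and Gm42418 were left out of the totals, the CPM counts were 848 higher and 1662 lower, so the split between higher and lower genes depended on the scaling. The scales disagreed for many genes called lower. Of the 1244 lower in CPM, 524 were higher per cell, 593 were called neither way per cell, and 127 were lower per cell too. The per-cell ratio of each gene is its CPM ratio times 5.68, the ratio of mean UMIs per cell. By construction, therefore, all 1316 genes higher in CPM were also higher per cell, and all 127 lower per cell were lower in CPM.

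**Figure D1:**
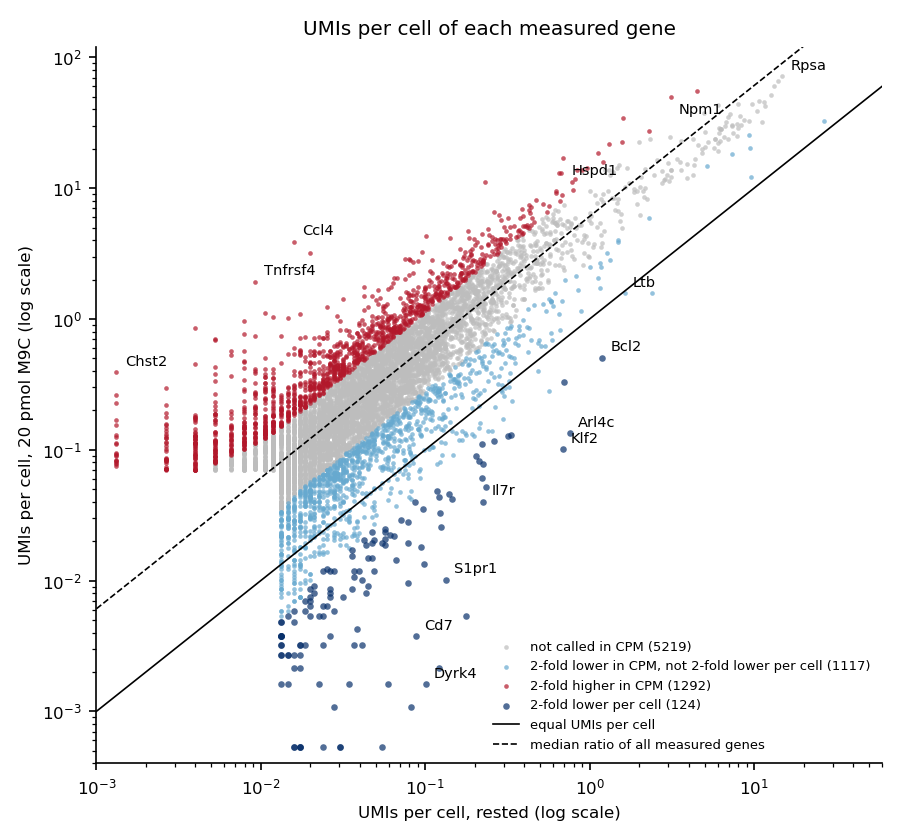
UMIs per cell of each measured gene in rested cells (horizontal, log scale) and at 20 pmol M9C (vertical, log scale), with 27 genes at 0 in 1 condition not drawn. Most genes lie near the dashed line, the median ratio of 6.09, while 124 drawn genes, Klf2, S1pr1, Il7r, Arl4c and Bcl2 among them, lie more than 2-fold below the solid line of equality.

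The added RNA was spread over many genes. The mean cell gained 5694 UMIs, and the 15 genes with the largest gain made up 10.5% of it. They were Actb, Hsp90ab1, Npm1, Ncl and otherwise ribosomal protein genes, led by Rpsa and Rplp0. Rpsa, a protein of the small ribosomal subunit, went from 14.8 UMIs per cell at rest to 71.7, and Actb, cytoplasmic actin, from 14.1 to 65.6. These gains were smaller than that of the median gene, at 4.84-fold and 4.66-fold. Hsp90ab1, a cytosolic chaperone, went from 4.52 to 55.7 UMIs per cell (12.3-fold, 11.9 to 12.8), Npm1, nucleophosmin of the nucleolus, from 3.11 to 49.7 (16.0-fold, 15.4 to 16.7) and Ncl, nucleolin, from 1.59 to 34.2 (21.5-fold, 20.3 to 22.8). In contrast, 297 measured genes had fewer UMIs per cell. All genes with fewer, measured or not, lost 13.0 UMIs per cell between them.

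Ranked by the interval bound nearest equality, the highest ratios were led by Ccl4, Tnfrsf4 and Ccl3. Ccl4, a chemokine that draws in other leukocytes (chromosome 11, 83662584 to 83664683), stood at 13.1 CPM at rest and 565 CPM after stimulation. Per cell, Ccl4 was at 0.0159 UMIs at rest, at 3.90, 2.93 and 2.23 with 20, 2 and 0.2 pmol M9C, and at 0.620 and 0.978 with 80 and 20 pmol L6F. Rest was thus the lowest condition and 20 pmol M9C the highest, 246-fold above rest (141 to 476). Tnfrsf4, the costimulatory receptor OX40 (chromosome 4, 156013843 to 156016612), stood at 7.62 and 279 CPM, and per cell at 0.00927 at rest, at 1.93, 1.55 and 1.15 with M9C by falling dose, and at 0.247 and 0.333 with L6F, 80 pmol first. The same order was seen for Xcl1, which attracts dendritic cells specialised in cross-presentation, with 0.00530 UMIs per cell at rest, 0.694, 0.456 and 0.205 with M9C and 0.0594 and 0.0634 with L6F. All stimulated conditions are set against the same rested cells. The rested counts were low, with 12 cells holding a UMI of Ccl4, 7 of Tnfrsf4 and 4 of Xcl1, and since RNA free in the pooled lane can enter any droplet, its part in these rested counts was not tested.

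Of 14 measured cytokine and chemokine genes, 7 were higher and 4 lower in CPM (median log2 ratio 1.12), where 16.9% and 16.0% of all measured genes were. Il2, the T cell growth factor, rested on 1 UMI at rest (30.4-fold in CPM, 5.44 to 1205), and Ifng, interferon gamma, went from 6.53 to 139 CPM (21.3-fold, 9.78 to 58.2). The lower members were of another kind: Ltb, lymphotoxin beta, which shapes lymphoid tissue, went from 1339 to 228 CPM, and Ccl5, a chemokine of memory cells, from 177 to 39.3 CPM. Ltb had 1.63 UMIs per cell at rest and 1.58 after stimulation, within counting error of each other. Of 17 activation and costimulatory receptors, 10 were higher and 1 lower. All 7 measured members of the list named inhibitory receptors were higher, with a median log2 CPM ratio of 3.84. This list also holds genes of ligands, Cd200 and Cd274. Among its members, Lag3 went from 4.35 to 102 CPM (23.4-fold, 9.13 to 86.1), Ctla4 from 1.09 to 22.3 CPM and Cd200 from 8.71 to 160 CPM. The smallest ratio was that of Cd274, the ligand PD-L1, from 9.79 to 21.1 CPM. The lower activation receptor was Il2rg, the gamma chain shared by several interleukin receptors, from 257 to 122 CPM, and per cell from 0.313 to 0.845 UMIs. Its log2 CPM ratio was 0.062 among cells with at least 1000 genes. Marcksl1, a membrane-bound regulator of actin, had no UMI in rested cells and 59.0 CPM after stimulation, at least 18.1-fold higher against a floor of 3 counts over the rested cells. Chst2, a sulfotransferase, stood at 1.09 and 56.7 CPM (52.1-fold, 9.32 to 2060).

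Downstream of the receptor, the signalling lists differed. The NFAT and calcium list held 10 higher and 2 lower genes in CPM among 15 measured (median log2 ratio 3.21), with the transcriptional regulators Zbtb32 from 3.26 to 65.4 CPM and Hivep3 from 9.79 to 150 CPM. The lower members were parts of the pathway itself, Nfatc2, the NFAT1 factor, from 33.7 to 11.4 CPM, and Ppp3cc, a catalytic subunit of calcineurin, from 25.03 to 8.52 CPM. Among cells with at least 1000 genes, 47 of them rested, the log2 CPM ratio of Nfatc2 was 0.73 and the median of the Erk-linked list was -0.019. Of 17 Erk-linked immediate-early and feedback genes, 8 were higher and 1 lower (median 1.04). Nab2, which restrains EGR factors, went from 8.71 to 54.7 CPM and Dusp2, a phosphatase that switches Erk off, from 51.1 to 150 CPM, whereas Jun, an AP-1 subunit, went from 113 to 29.9 CPM, or from 0.138 to 0.207 UMIs per cell. Of 14 NF-kB genes, 6 were higher and none lower (median 0.97), led by the survival gene Bcl2a1b, from 3.26 to 122 CPM (37.5-fold, 12.8 to 182), whose near-identical copies make its count uncertain. Of 15 effector and memory transcription factors, 8 were higher and 3 lower (median 1.11): Irf8 went from 11.97 to 147 CPM and Tbx21, the T-bet gene, from 2.18 to 31.6 CPM, while Id2, a repressor of E proteins, went from 64.2 to 9.52 CPM.

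The receptor's own machinery took a smaller share. Of 20 T cell receptor complex and proximal signalling genes, 2 were higher and 5 lower in CPM (median -0.41), against 16.9% and 16.0% of all measured genes. Per cell 18 were higher, a share near the 90.7% of all measured genes. Their median per-cell log2 ratio was 2.10, against 2.61 for all measured genes. The members higher in CPM were Cd5, a receptor that dampens the signal, from 67.5 to 179 CPM, and Cd6, its relative, from 59.9 to 140 CPM. The lowest were Themis, an adaptor of the receptor complex, from 106 to 20.5 CPM and from 0.128 to 0.142 UMIs per cell, and Trac, the constant segment of the alpha chain, from 918 to 296 CPM. Cd8b1, the beta chain of the coreceptor, went from 947 to 389 CPM, and Cd8a, its alpha chain, from 472 to 441 CPM, within counting error. Among cells with at least 1000 genes, the median of this list was 0.42 and the log2 CPM ratio of Trac was 0.14.

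Genes of the growth machinery were higher in many lists. Of 32 ribosome biogenesis and RNA polymerase I genes, 18 were higher in CPM and none lower (median log2 ratio 1.02), and their summed UMIs went from 8.98 to 135 per cell (15.04-fold). Beside Ncl, these included Nolc1, a nucleolar phosphoprotein, from 158 to 498 CPM and Mybbp1a, a nucleolar regulator of ribosomal RNA synthesis, from 141 to 440 CPM, while Fbl, the RNA methylase fibrillarin, went from 336 to 448 CPM. Chaperones and the TRiC complex, which fold new proteins, were higher in 16 of 23 members (median 1.10). Hspd1, the mitochondrial chaperonin HSP60, went from 0.693 UMIs per cell at rest to 16.9, 17.1 and 17.7 with 20, 2 and 0.2 pmol M9C and to 12.6 and 13.8 with 80 and 20 pmol L6F, so the stimulated conditions stood close together and far above rest. Nuclear import and export genes were higher in 14 of 17 members (median 1.49), with Ran, the GTPase that drives this transport, from 686 to 1978 CPM. Proteasome subunits were higher in 12 of 34, aminoacyl-tRNA synthetases in 10 of 21, splicing and RNA-binding factors in 11 of 34 and mitochondrial import genes in 11 of 21, with none lower in these 4 lists and medians between 0.81 and 1.01. In each list of this paragraph every measured member was higher per cell, but so were 90.7% of all measured genes. The same was true of every measured member in 24 of the 41 lists. In CPM, the counts above stand beside 16.9% higher and 16.0% lower among all measured genes.

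**Figure D2:**
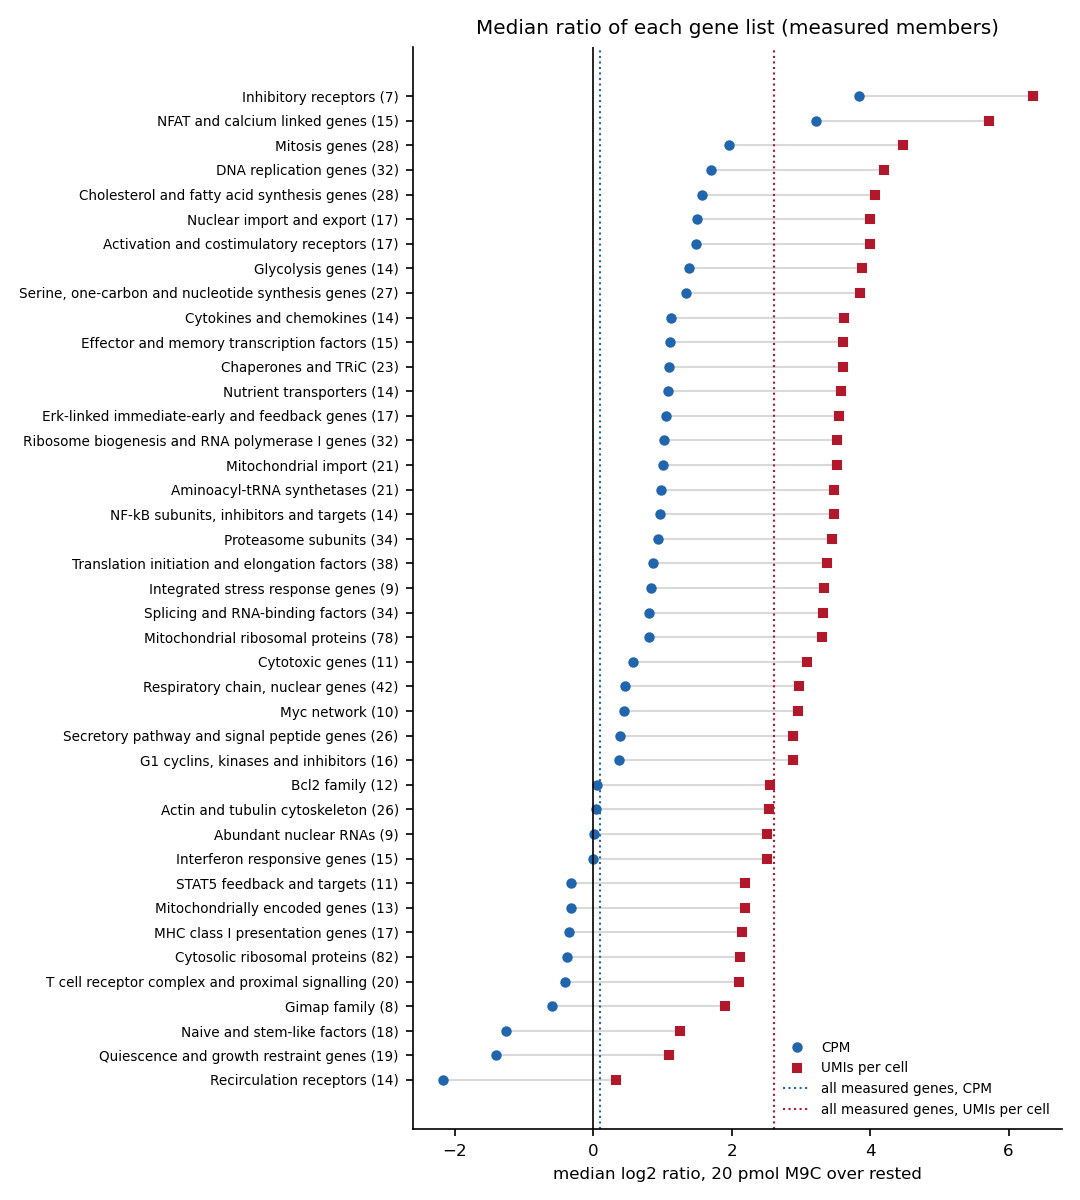
Median log2 ratio of 20 pmol M9C over rested for the measured members of 41 gene lists (number in brackets), in CPM (blue circles) and UMIs per cell (red squares), with dotted lines at the medians of all 7779 measured genes. Inhibitory receptors (3.84) and NFAT-linked genes (3.21) lead in CPM, and recirculation receptors (-2.17), quiescence genes (-1.41) and naive factors (-1.25) are the 3 lists at -1 or less.

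Translation genes split by role. Of 38 initiation and elongation factors, 15 were higher in CPM and none lower (median 0.87). Eif2b1, a subunit of the factor that recharges eIF2, went from 16.3 to 77.3 CPM (4.73-fold, 2.86 to 8.49) and Eif5a, which helps the ribosome past difficult peptide bonds, from 1295 to 3235 CPM, whereas Eef1a1, the abundant carrier of aminoacyl-tRNA, went from 5664 to 3465 CPM. The cytosolic ribosomal proteins themselves stood on the other side of the median. Of 82 measured, 77 were called neither way in CPM, 2 were higher and 3 lower (median -0.39), and their share of all UMIs went from 34.0% to 25.7%. Per cell all 82 were higher, as were 90.7% of all measured genes. Their sum went from 413 to 1776 UMIs (4.30-fold), less than the 15.04-fold of the genes that build ribosomes. They still made up 23.9% of the gained UMIs. The higher members were Rps27l, a relative of Rps27 that responds to p53 (134.9 to 326.6 CPM), and Rpl7l1, a relative of Rpl7 with a role in ribosome assembly (123 to 295 CPM). The lower ones were Rps24 (6048 to 2638 CPM), Rps27 (1214 to 581 CPM) and Rps7 (7647 to 3687 CPM), of which Rps24 and Rps27 were lower per cell too among cells of 1000 to 3000 UMIs (log2 ratios -0.44 and -0.32), and near-identical pseudogenes make single ribosomal protein counts uncertain.

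Mitochondrial genes differed by genome and role. Of 78 mitochondrial ribosomal proteins, 29 were higher and none lower in CPM (median 0.81), with Mrps6 from 51.1 to 252 CPM. Of 42 nuclear genes of the respiratory chain, 4 were higher and none lower (median 0.46), Cycs, cytochrome c, among the former at 157 and 450 CPM. The 13 genes of the mitochondrial genome had a median of -0.31, with mt-Atp8 higher (65.3 to 140 CPM) and mt-Co1 (4277 to 2134 CPM) and mt-Nd6 (50.1 to 22.6 CPM) lower. Their summed UMIs per cell went from 29.5 to 112 (3.80-fold), against 7.69-fold for the nuclear respiratory genes and 12.1-fold for the import genes. Cells over 10% mitochondrial UMIs had been left out, 60 at 20 pmol M9C and 0 at rest. Most of the 60 were also among the 64 with under 500 genes, since 1869 of 1941 cells were kept.

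Metabolic genes that supply lipids, nucleotides and carbon were higher. Of 28 cholesterol and fatty acid synthesis genes, 21 were higher in CPM and none lower (median 1.57). Pmvk, phosphomevalonate kinase, stood at 34.8 and 256 CPM, and per cell at 0.0424 at rest, at 1.77, 1.70 and 1.69 with M9C by falling dose, and at 1.42 and 1.43 with 80 and 20 pmol L6F. Idi1 (62.0 to 417 CPM) and Cyp51 (53.3 to 298 CPM), later enzymes of the same route, were 6.73-fold and 5.58-fold higher. Elovl6, a fatty acid elongase, stood at 30.5 CPM in both conditions. Among 27 genes that make serine, one-carbon units and nucleotides, 20 were higher and none lower (median 1.34): Odc1, which starts polyamine synthesis, went from 69.6 to 392 CPM and Shmt1, a serine hydroxymethyltransferase, from 20.7 to 110 CPM. Slc19a1, the folate carrier, led the 8 of 14 nutrient transporters that were higher, from 14.1 to 76.2 CPM. Of 14 glycolysis genes, 10 were higher (median 1.38), with Hk2, hexokinase 2, from 9.79 to 51.3 CPM and Ldha, lactate dehydrogenase A, from 538 to 1880 CPM. The 1 lower member was Pdk1, a kinase that keeps pyruvate out of the mitochondrion, from 56.6 to 24.2 CPM. That direction was not stable, since its log2 ratio was 1.81 among cells with at least 1000 genes.

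Division genes were higher as a group. Of 32 DNA replication genes, 30 were higher in CPM and none lower (median 1.70), and of 28 mitosis genes, 27 were higher and none lower (median 1.96). Rrm2, a subunit of ribonucleotide reductase, stood at 34.8 and 217 CPM, and per cell at 0.0424 at rest, at 1.498, 1.45 and 1.49 with M9C by falling dose, and at 1.26 and 1.27 with L6F. Ccnb1, cyclin B1, went from 25.03 to 140 CPM (5.59-fold, 3.71 to 8.84). The replication genes called neither way were the licensing factor Cdt1 (22.9 to 44.1 CPM) and the polymerase subunit Pold1 (25.03 to 45.5 CPM). Among G1 regulators, 6 of 16 were higher and 3 lower, with E2f3 from 6.53 to 40.6 CPM and Cdkn1b, the inhibitor p27, from 162 to 18.5 CPM (8.76-fold lower, 7.09 to 10.8). These results depended on which rested cells were used. Among cells with at least 1000 genes, 1844 stimulated and 47 rested, the median log2 CPM ratio was 0.26 for replication and -0.21 for mitosis genes. Among cells of 1000 to 3000 UMIs, 112 stimulated and 450 rested, the medians were 1.74 and 2.47.

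Promoter letters were read for list members in the RefSeq promoter table of GRCm38.p6, 300 bases each from 250 before to 50 after a start. The motifs searched, on both strands, were GGAAA (NFAT core), TGANTCA (AP-1), CACGTG (E-box), TTTCCCGC or TTTGGCGC (E2F type), TCACNCCAC (sterol element) and TTGTTTAC (forkhead). The NFAT core lies within the reverse complement of TTTCCCGC, so those matches overlap. An E2F-type match was in 9 of 32 windows of the replication genes (28.1%, from 26 of 32 genes with a window), against 1.57% of all 32851 windows and 3.47% of those of measured genes, and in 0 of 24 windows of the mitosis genes. An E-box was in 30.3% of translation factor windows, 26.7% of tRNA synthetase, 25.8% of ribosome biogenesis and 7 of 28 windows of serine, one-carbon and nucleotide genes. Its share was 7.15% of all windows and 10.9% of those of measured genes. It was also in 4 of 13 Myc network windows and 23.8% of mitochondrial import windows. Other growth lists were near or below the measured genes, with 12% for chaperones, 10.5% for cytosolic and 9.33% for mitochondrial ribosomal proteins. Glycolysis genes had 7.69% and proteasome subunits 3.33%. The NFAT core was in 45.5% of windows of the NFAT and calcium list, against 59.5% of those of measured genes. A sterol element was in 1 of 23 windows of the cholesterol and fatty acid list, against 1.05% of those of measured genes. Among the 1316 genes higher in CPM the E2F-type share was 5.46% and the E-box share 12.7%. The windows below are those of the replication genes with the highest CPM ratios among members with the E2F-type letters, and of the ribosome biogenesis gene with the highest ratio among members with the E-box, with the matched letters in capitals. A match is a description and not a site.
Cdc6, chr11:98907901-98908200, plus strand: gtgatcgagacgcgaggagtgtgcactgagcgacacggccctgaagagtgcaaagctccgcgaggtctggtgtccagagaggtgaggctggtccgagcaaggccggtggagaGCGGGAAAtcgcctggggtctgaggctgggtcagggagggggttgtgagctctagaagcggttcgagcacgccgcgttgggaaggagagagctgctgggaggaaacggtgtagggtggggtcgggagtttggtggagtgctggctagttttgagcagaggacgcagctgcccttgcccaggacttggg
Rfc3, chr5:151651159-151651458, minus strand: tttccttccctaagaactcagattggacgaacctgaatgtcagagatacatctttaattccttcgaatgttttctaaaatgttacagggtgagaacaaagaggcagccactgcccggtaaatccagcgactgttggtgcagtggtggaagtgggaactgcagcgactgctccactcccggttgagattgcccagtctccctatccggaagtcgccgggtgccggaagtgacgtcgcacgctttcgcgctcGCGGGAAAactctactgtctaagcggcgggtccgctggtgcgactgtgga
Mybbp1a, chr11:72441077-72441376, plus strand: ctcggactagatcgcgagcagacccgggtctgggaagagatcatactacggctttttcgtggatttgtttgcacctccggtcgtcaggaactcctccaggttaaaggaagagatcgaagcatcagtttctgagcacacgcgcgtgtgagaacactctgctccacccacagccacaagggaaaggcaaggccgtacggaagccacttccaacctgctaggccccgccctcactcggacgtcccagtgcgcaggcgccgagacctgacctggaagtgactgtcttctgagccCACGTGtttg
Cdc6, which loads the replicative helicase, stood at 18.5 and 81.5 CPM (4.41-fold, 2.74 to 7.59) and Rfc3, a subunit of the clamp loader, at 28.3 and 117 CPM (4.12-fold, 2.80 to 6.32). Both windows hold the same letters, GCGGGAAA.

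A small set of genes had fewer molecules per cell after stimulation. Of the 127 genes lower per cell, 38 had at least 50 CPM. Klf2, the factor of quiescence and recirculation (chromosome 8, 72319033 to 72321656), stood at 563 CPM at rest and 14.6 CPM after stimulation. Per cell, Klf2 was at 0.685 UMIs at rest, at 0.101, 0.0910 and 0.0799 with 20, 2 and 0.2 pmol M9C, and at 0.237 and 0.170 with 80 and 20 pmol L6F, highest at rest and 6.81-fold lower (5.75 to 8.09) at 20 pmol M9C. S1pr1, a sphingosine-1-phosphate receptor used for exit from lymph nodes and spleen (chromosome 3, 115710433 to 115715072), stood at 0.134 UMIs per cell at rest, 0.0102, 0.0129 and 0.0101 with M9C and 0.0263 and 0.0238 with L6F, and was 13.2-fold lower (8.01 to 22.8) at 20 pmol M9C. Il7r, the receptor for the survival cytokine IL-7, was at 0.225 at rest, at 0.0401, 0.0505 and 0.0900 with M9C by falling dose and at 0.167 and 0.159 with L6F. Rest was the highest condition for Il7r and 20 pmol M9C the lowest, 5.61-fold below rest (4.25 to 7.46). Arl4c, a small GTPase, went from 0.759 to 0.134 UMIs per cell (5.65-fold lower, 4.86 to 6.58). Bcl2, which protects resting lymphocytes from death, was at 1.19 at rest, at 0.507, 0.584 and 0.623 with M9C by falling dose and at 0.903 and 0.876 with L6F, 2.34-fold lower (2.14 to 2.57) at 20 pmol M9C. Steeply lower were also Dyrk4, a kinase, from 82.7 to 0.232 CPM with UMIs in 71 rested cells, and Cd7, a T cell surface receptor, from 71.8 to 0.542 CPM with UMIs in 61. Elane, Prtn3 and Mpo, granule genes of immature myeloid cells, were as steeply lower, but 1 rested cell held 92.6%, 92.4% and 85.5% of their rested UMIs. In all, 11 of the 127 genes had most of their rested UMIs in 1 cell.

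**Figure D3:**
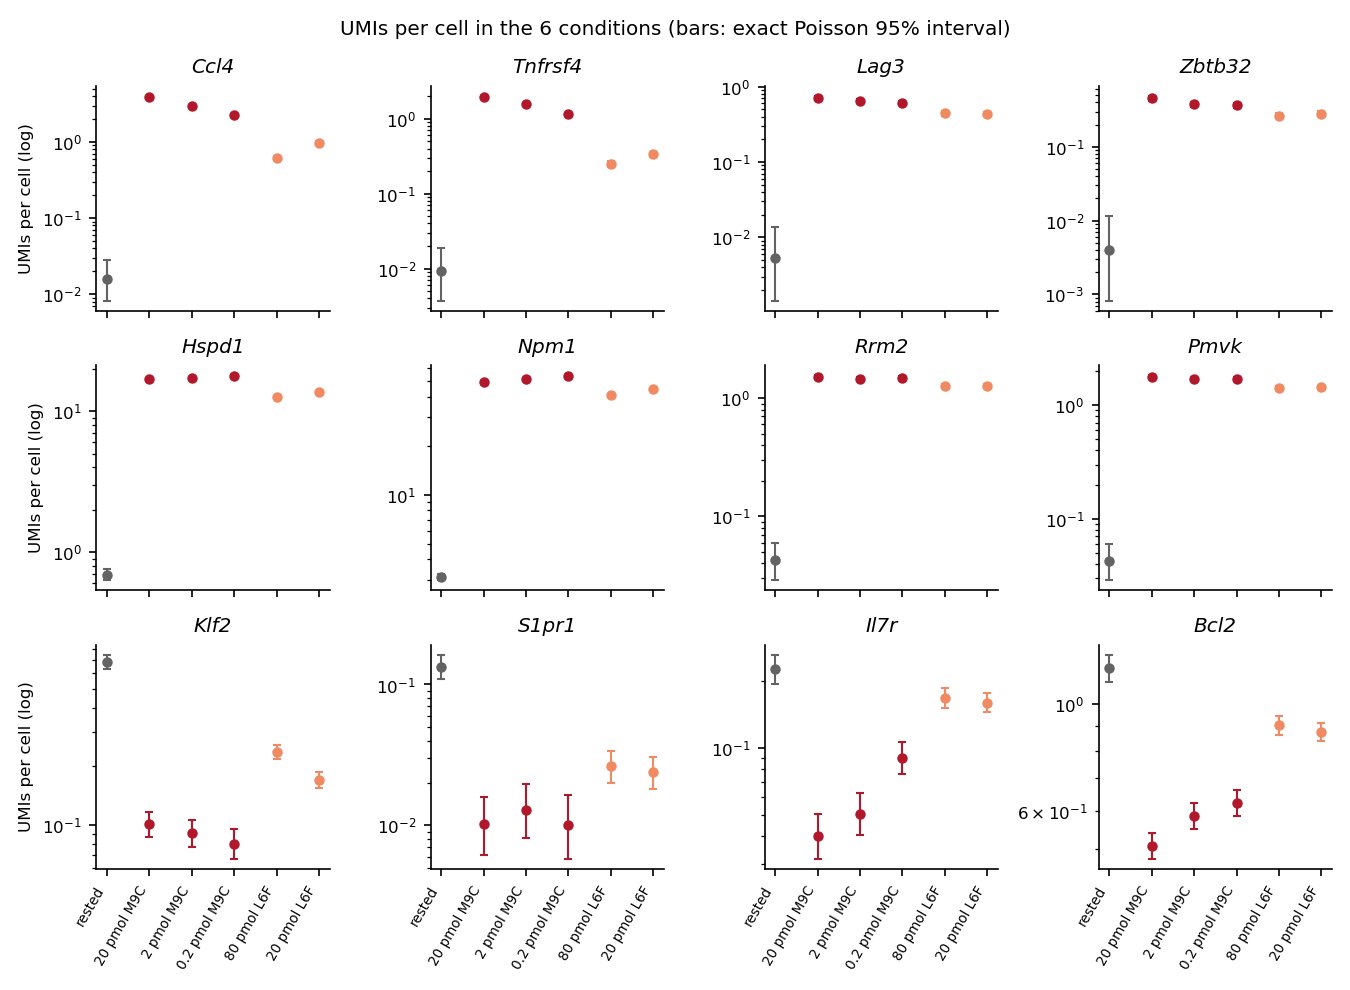
UMIs per cell (vertical, log scales that differ between panels) of 12 genes in the 6 conditions, with exact Poisson 95% intervals as bars and 1 culture per condition. Upper and middle panels are higher in every stimulated condition than at rest, Ccl4 from 0.0159 to 3.90 at 20 pmol M9C, and the lower panels are highest at rest, Klf2 at 0.685 against 0.101.

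Promoter windows of the genes ranked highest and lowest in CPM by the interval bound nearest equality among those with a window, Tnfrsf4 and Elane, and of Klf2, chosen after its values were seen, are shown with every searched motif in capitals. The Tnfrsf4 window holds 1 NFAT core on the minus strand and 1 E-box, the Klf2 window 1 NFAT core on the minus strand, and the Elane window none. NFAT core letters are common, in 61.3% of all windows, and stood in 60.7% of the windows of genes higher in CPM and 60.5% of those of genes lower in CPM.
Tnfrsf4, chr4:156013445-156013744, plus strand: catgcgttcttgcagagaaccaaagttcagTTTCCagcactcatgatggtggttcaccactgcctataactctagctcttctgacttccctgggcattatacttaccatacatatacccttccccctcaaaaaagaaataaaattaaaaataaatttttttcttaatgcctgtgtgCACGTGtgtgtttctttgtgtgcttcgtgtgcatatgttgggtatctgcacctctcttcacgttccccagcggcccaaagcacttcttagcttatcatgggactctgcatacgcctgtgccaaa
Elane, chr10:79886062-79886361, plus strand: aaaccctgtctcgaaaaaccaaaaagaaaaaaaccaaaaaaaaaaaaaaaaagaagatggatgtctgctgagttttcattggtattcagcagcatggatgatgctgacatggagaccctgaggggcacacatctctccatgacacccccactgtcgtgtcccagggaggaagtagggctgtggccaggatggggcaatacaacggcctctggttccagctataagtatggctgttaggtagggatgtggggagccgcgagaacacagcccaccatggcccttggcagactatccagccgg
Klf2, chr8:72318812-72319111, plus strand: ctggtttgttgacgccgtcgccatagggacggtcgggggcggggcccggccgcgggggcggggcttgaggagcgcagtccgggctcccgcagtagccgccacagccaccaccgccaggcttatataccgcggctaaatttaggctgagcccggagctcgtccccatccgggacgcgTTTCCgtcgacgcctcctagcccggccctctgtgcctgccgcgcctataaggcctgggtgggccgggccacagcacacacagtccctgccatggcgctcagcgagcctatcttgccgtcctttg

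The resting programme was lower in share, and its members parted on the per-cell scale. Of 14 measured recirculation receptors, 11 were lower and none higher in CPM (median -2.17). Per cell, 4 were lower and 3 higher, against 1.63% and 90.7% of all measured genes: Itga4, an integrin subunit for entry into tissue, went from 0.139 to 0.0460 UMIs per cell (3.02-fold lower, 2.25 to 4.07), while Ccr7, the lymph node homing receptor, stood at 0.287 and 0.420. Of 18 naive and stem-like factors, 12 were lower and none higher in CPM (median -1.25). Per cell, Klf2, Il7r and Igfbp4, which binds insulin-like growth factors, were lower and 10 were higher. Tcf7, the factor TCF-1 of naive and memory cells, went from 251 to 112 CPM but from 0.306 to 0.777 UMIs per cell (2.54-fold higher, 2.21 to 2.93), and Foxo1, which drives Klf2 and Il7r in resting cells, from 65.3 to 25.6 CPM and from 0.0795 to 0.177 per cell. Bach2, a repressor of effector genes (38.1 to 58.7 CPM), and Id3, an inhibitor of E proteins (43.5 to 63.0 CPM), had the highest ratios of this list. Of 19 quiescence and growth restraint genes, 13 were lower and 1, Kdm6b, a histone demethylase, was higher in CPM (median -1.41). Per cell, Pik3ip1, a brake on PI3 kinase, went from 0.123 to 0.0326 (3.77-fold lower, 2.70 to 5.30), Txnip, which curbs glucose uptake, from 0.224 to 0.0781, Slfn1, a Schlafen gene of resting T cells, from 0.319 to 0.128, and Tsc22d3, the glucocorticoid-induced factor GILZ, from 0.0715 to 0.0289. Slfn1 stood at 0.128, 0.119 and 0.152 with M9C by falling dose and at 0.488 and 0.428 with L6F, below rest in the former and above it in the latter. Among cells of 1000 to 3000 UMIs the per-cell medians were -0.06 for naive factors, -0.29 for quiescence genes and -0.63 for recirculation receptors, against 1.25, 1.09 and 0.33 over all cells.

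The remaining lists were mixed, and their shares are read against the 16.9% higher and 16.0% lower of all measured genes in CPM. Of 11 cytotoxic genes, 5 were higher and 3 lower in CPM (median 0.58), with Gzmb, granzyme B, from 39.2 to 129 CPM and Serpinb6b, a serpin, from 5.44 to 82.7 CPM. Gzmb stood at 0.0477 UMIs per cell at rest, at 0.888, 0.964 and 1.71 with 20, 2 and 0.2 pmol M9C and at 1.16 and 1.60 with 80 and 20 pmol L6F, so 20 pmol M9C was the lowest of the stimulated conditions. Ctsw, a cathepsin of cytotoxic lymphocytes, went from 0.694 to 0.332 UMIs per cell (2.09-fold lower, 1.86 to 2.35), and Nkg7, a granule membrane protein, from 955 to 251 CPM but from 1.16 to 1.74 per cell. Of 12 Bcl2 family genes, 3 were higher and 3 lower, with Bcl2l1, which encodes BCL-XL, from 21.8 to 57.3 CPM beside the lower Bcl2. Of 17 MHC class I presentation genes, none was higher and 2 lower, B2m, the light chain, from 1048 to 464 CPM and H2-Q7, a class Ib heavy chain, from 427 to 189 CPM. Of 15 interferon responsive genes, 3 were higher and 4 lower, with Gbp2, an interferon-induced GTPase, at 65.3 and 419 CPM and Irf7, a factor of the type I response, at 13.1 and 1.01 CPM. Of 11 STAT5 genes, 1 was higher and 3 lower, with Socs3, a feedback inhibitor of cytokine receptors, from 26.1 to 4.57 CPM and at 0.0318 and 0.0316 UMIs per cell. Of 8 Gimap GTPase genes of resting lymphocytes, 2 were lower and none higher (median -0.60), and that median was 0.68 among cells with at least 1000 genes. In the cytoskeleton list, 5 of 26 were higher and 3 lower, the former tubulins and Stmn1, the latter Tmsb4x, Tmsb10 and Vim. Stmn1, which destabilises microtubules, and the tubulin Tubb4b had log2 CPM ratios of -0.63 and -0.12 among cells with at least 1000 genes. Vim, vimentin, went from 543 to 119 CPM and stood at 0.661 UMIs per cell at rest, at 0.822, 0.974 and 1.48 with M9C by falling dose and at 2.83 and 2.06 with L6F. Malat1 and Gm42418, placed in the list named abundant nuclear RNAs, differed little per cell, at 9.61 and 12.2 UMIs and at 26.5 and 32.5 UMIs. Both took a smaller share, at 7892 and 1761 CPM and at 21764 and 4699 CPM. The origin of the Gm42418 counts was not tested. Of 9 integrated stress response genes, 4 were higher and none lower, with Asns, asparagine synthetase, from 4.35 to 31.4 CPM, and of 26 secretory pathway genes, 4 were higher, a share near that of all measured genes, and none lower, with Hspa5, the chaperone BiP, from 429 to 1096 CPM.

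To ask whether these differences ran through the cells or came from a few, each cell was thinned at random to 1000 UMIs, leaving out shallower cells, so that 464 of 755 rested and 1862 of 1869 stimulated cells remained. At this equal depth the median cell showed 552 genes at rest and 644 at 20 pmol M9C. The median share of ribosomal protein UMIs was 36.4% at rest (10th to 90th percentile 29.7 to 40.7) and 25.4% after stimulation (21.6 to 29.1), and 93.3% of stimulated cells lay below the rested 10th percentile. The share of chaperones went from 1.20% to 2.90%, with 95.1% of stimulated cells above the rested 90th percentile, and that of ribosome biogenesis genes from 0.700% to 1.90%, with 89.7% above. For replication and mitosis genes, 69.0% and 69.5% of thinned stimulated cells lay above the rested 90th percentile of 0.400%. Such small shares of 1000 UMIs rest on few UMIs per cell. At full depth the stimulated 10th percentiles, 0.416% and 0.413%, lay above the rested 90th percentiles, 0.329% and 0.304%. Depth was unequal there, with medians of 6943 UMIs after stimulation and 1056 at rest. After thinning, the stimulated 10th percentile was 0.3% for both lists, below the rested 90th. After thinning, naive, recirculation and quiescence genes together took 0.600% at rest and 0.2% after stimulation. Of the thinned stimulated cells, 54.0% lay below the rested 10th percentile of that share. Other lists parted the cells less. For T cell receptor complex and proximal signalling genes, 74.6% of thinned stimulated cells lay inside the rested 10th to 90th percentile range. The part inside was 67.4% for translation initiation and elongation factors and 48.8% for mitochondrially encoded genes. Cells of 1 culture are not replicates, so these shares describe the spread within each culture.

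**Figure D4:**
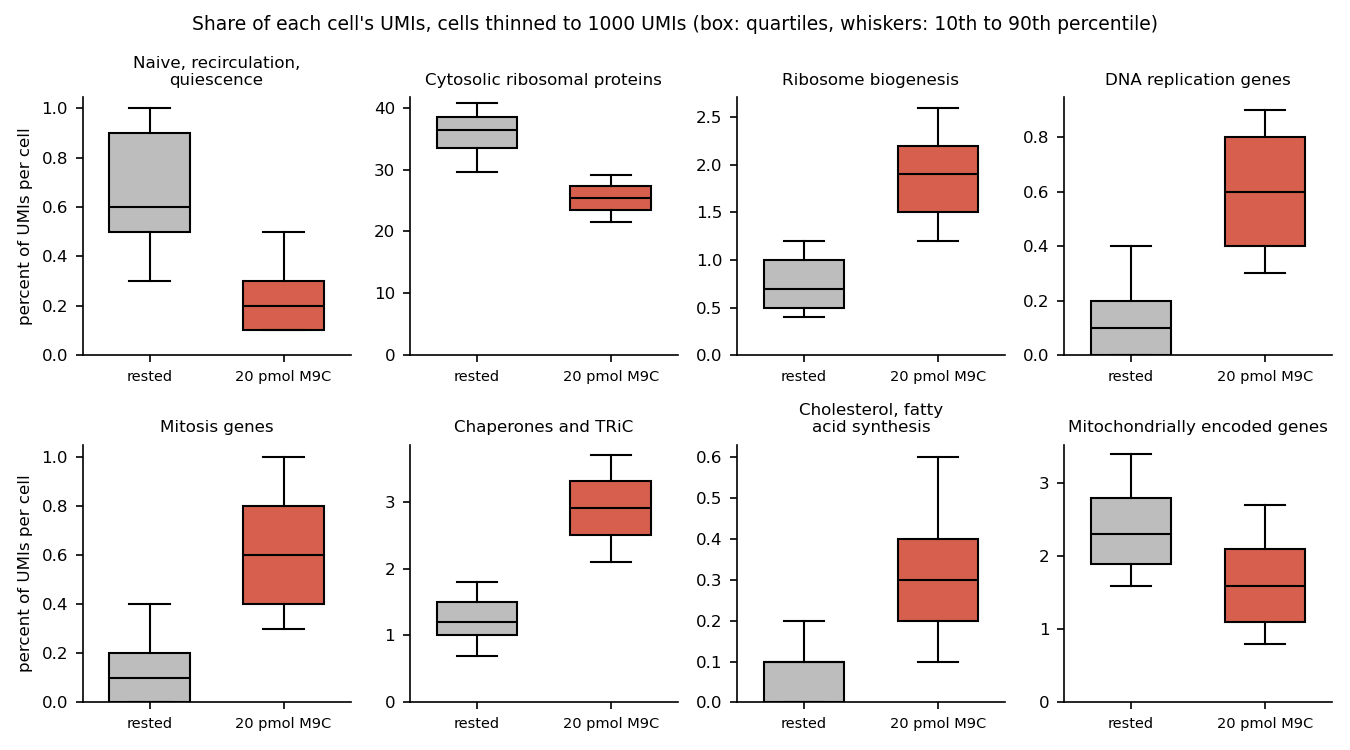
Percent of each cell's UMIs in 8 gene lists after thinning to 1000 UMIs, for 464 rested cells (grey) and 1862 cells at 20 pmol M9C (red), with boxes at the quartiles, a line at the median and whiskers at the 10th and 90th percentiles. Among these 8 lists the boxes overlap only for mitochondrially encoded genes (quartiles 1.9 to 2.8% at rest and 1.1 to 2.1% after stimulation). The T cell receptor and translation factor lists are not drawn, and their quartiles overlapped too. They were 0.7 to 1.2% and 0.5 to 0.8% for the former, and 2.1 to 2.7% and 2.4 to 3.2% for the latter. Medians were 36.4 and 25.4% for ribosomal proteins, 1.20 and 2.90% for chaperones and 0.700 and 1.90% for ribosome biogenesis genes.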

How the data were processed

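The deposited matrix holds raw counts of UMIs per gene and per hashtag for 13439 barcodes of 1 pooled lane. The submitters' processing notes name bcl2fastq, Cell Ranger 6.0.1 and the mouse build GRCm38, also called mm10, behind the authors' counts. Annotation, cell calling and use of strand are not given in these sources. A deposited table ties each hashtag to its condition. Of the barcodes, 1768 (13.2%) passed no hashtag rule and were left out, and Seurat 5.3.0 (HTODemux) placed 746 of 755 rested and 1600 of 1869 stimulated cells in the same condition. It called 9 rested and 160 stimulated cells multiple and 107 stimulated cells negative. No doublet caller was run, so pairs of cells of 1 or of different conditions may remain. UMIs were summed per condition in Python 3.11.15. Ratios have exact Clopper-Pearson 95% intervals and CPM exact Poisson intervals (scipy 1.17.1), and a sum of 0 was set to 3 counts. With 1 culture per condition no test between conditions was run. Gene positions are those of GENCODE vM21 (GRCm38), which held 32158 of 32285 gene IDs.

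The members and the 41 gene lists were chosen with earlier results of these data known. Among genes at 50 CPM or more, and leaving aside genes without a proper name, other cell types' markers, and mitochondrial, ribosomal protein, antigen receptor and immunoglobulin genes, the naming rule took the 10 highest and 10 lowest CPM ratios and the 10 highest and 15 lowest per-cell ratios by the interval bound nearest equality. It added the 15 largest gains and the 2 highest and 2 lowest CPM ratios of each list. Other list members named, such as Tcf7, Foxo1, Ccr7, Cd8a, Ran and Vim, were chosen after their values were seen.
Results for some genes are not reported here.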

Additional observations from a re-analysis of the deposited data

How the results depend on the processing

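The limits are set by the rested side: 1 culture, 755 cells and 918920 UMIs, after the gene minimum had removed 52.3% of its cells, and a single lane for all conditions. No paired analysis was possible because each condition was 1 culture without replicate numbers. Over 1316 genes higher and 1244 lower in CPM, and 7059 and 127 per cell, the counts moved with the choice of cells and with the filter on low values. Without a minimum number of genes (1583 rested cells) they were 1411 and 1315 in CPM and 7311 and 102 per cell, with 92 of the 127 genes again lower per cell, and 87 of the named genes' per-cell ratios moved beyond their intervals. With at least 1000 genes per cell (47 rested cells) there were 354 genes higher in CPM and 992 lower, 3119 and 382 per cell, and 5 in place of 16 lists with a median log2 CPM ratio of 1 or more. With cells of 1000 to 3000 UMIs there were 1258 higher and 501 lower in CPM and 3347 and 122 per cell, and 37 of the 127 genes were again lower per cell. Totals without ribosomal, mitochondrial and the 2 abundant RNAs gave 848 higher and 9 such lists. A minimum of 50 CPM gave 762 and 419 in CPM and 3280 and 38 per cell, a 1.5-fold rule 2126 higher, and a rule that the interval bound itself passes 2-fold 475 and 660 in CPM and 60 lower per cell. No filter on low values gave 1379 higher and 1859 lower in CPM. With HTODemux calls the counts were 1007 and 1221 in CPM and 7028 and 172 per cell, with 110 of the 127 genes again lower per cell. Leaving out cells with markers of other cell types kept 845 stimulated and 579 rested cells and gave 1484 and 1197 in CPM. With Ighm and Trdc not counted as markers, 1826 and 727 cells were kept and the counts were 1476 and 1234. Leaving out cells with Elane, Prtn3 and Mpo gave 1347 and 1236 with 116 lower per cell. The last 2 settings were chosen after seeing the data.

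With at least 1000 genes, directions turned in CPM for the list medians of Erk-linked (-0.019), mitosis (-0.21), T cell receptor (0.42), Gimap (0.68), G1 (-0.41), Bcl2 family (-0.27), cytoskeleton (-0.17), secretory (-0.15) and nuclear respiratory genes (-0.025), per cell for that of recirculation receptors (-0.49), and, among named genes called 2-fold, for Tubb4b (-0.12), Pdk1 (1.81), Slc43a3 (-0.39), Nfatc2 (0.73), Stmn1 (-0.63), Gimap3 (0.59), Mnt (0.67), Trac (0.14), Sdf2l1 (-0.030) and Il2rg (0.062), and per cell for Nusap1 (-0.18). With cells of 1000 to 3000 UMIs they turned per cell for the medians of naive (-0.058), quiescence (-0.29) and recirculation genes (-0.63), in CPM for those of mitochondrially encoded (0.18) and cytoskeleton genes (-0.064), and, per cell among genes called 2-fold, for B2m (-0.28), Trib3 (-0.99), Rps27 (-0.32), Rbl2 (-0.32), Rps24 (-0.44), Ndufa6 (-0.22), Nfkbiz (-0.90), H2-Q7 (-0.087), Il2rg (-0.10) and Tmsb4x (-0.42). The interferon, Bcl2 family, cytoskeleton and abundant nuclear RNA medians lay near 0 in CPM and turned sign under both scaling alternatives. The cause was not tested.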
